A study of Homo sapiens with 12 samples.

Results

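The 50 genes described here encode the machinery that copies chromosomes and the machinery that separates them. They were taken by gene symbol from a given list of well-known cell cycle genes and held apart as 29 S phase genes, which serve DNA replication, and 21 mitosis genes. All 50 were found among 58684 entries of the deposited expression table. RNA was measured in 12 libraries from 4 established lines of a human lymphoma, diffuse large B-cell lymphoma: U2932, TMD8, SUDHL-4 and WSU-DLCL2. Cells of each line were exposed for 18 hours to avadomide (CC-122), to lenalidomide or to DMSO, the solvent control, which gave 1 library per line and treatment and 4 per treatment. No genetic change was introduced, no source used here gives the doses, and a line stands for 1 tumour. Both compounds bind cereblon, the substrate receptor of a ubiquitin ligase, so that it marks Ikaros and Aiolos, transcription factors of lymphocytes, for degradation. As background, U2932 and TMD8 belong to the activated B-cell class of this lymphoma, while SUDHL-4 and WSU-DLCL2 belong to the germinal-centre class.

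Replication begins when CDC6 and CDT1 load the MCM2 to MCM7 helicase ring onto origins, a step called licensing. CDC45 and the GINS complex then switch the helicase on, and the clamp PCNA holds the DNA polymerases on the template. Most of these genes are transcribed together late in G1 by E2F transcription factors, with cyclin E acting upstream through phosphorylation of the retinoblastoma protein. Mitosis genes are transcribed later, through FOXM1 and through complexes that read a promoter element called the cell cycle genes homology region (CHR). Rapidly dividing lymphoma cells express both programmes.

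The values are log2 expression values as deposited, on which a difference of 1 is a doubling. Sequencing depth is unknown, because no counts were among the values. Each library held 13865 to 15294 genes at a log2 value of 5 or more. All 50 genes lay high in the range, with means over the 12 libraries from 11.3 to 16.07, so none was lost to the filter on low values. B cell markers stood at or above 5 in all libraries for 6 of 6 genes, with library medians of 14.8 to 15.4. The medians of 4 T cell, 4 myeloid and 4 stromal markers ran from 0.479 to 3.45, from 0.736 to 4.03 and from 1.51 to 6.71. Of these, CD3D lay between -1.43 and -0.06 in all libraries, while TRAC (7.77 to 13.04) and DCN (5.86 to 11.83) were above 5 throughout. Differences between treatments were tested with limma on all 22528 genes with enough signal, with cell line as a block. A gene was called at a Benjamini-Hochberg adjusted p of 0.05 over all of them. The p-values measure how evenly a difference appeared over 4 lines, with no replicate inside a line, and part of that spread may be technical.

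Promoters of the 2 gene groups carried different letters, and 6 of them are printed here because they belong to genes whose levels are described below. RefSeq promoter windows on build GRCh38.p14, from 250 bases before to 50 bases after the annotated start, were matched for 40 of the 50 genes, 24 of S phase and 16 of mitosis. Capitals mark E2F-type or CHR-type letters, searched on both strands. The E2F-type letters were TTCCCGC, another form written TTCGCGC, another form written TTGCCGC and the last form TTGGCGC. The CHR-type letters were TTTGAA or the variant form TTCGAA. Overlapping matches of the E2F-type letters were counted separately. Each sequence runs 5′ to 3′ along the gene's own strand.
E2F1, chr20:33686336-33686635, minus strand: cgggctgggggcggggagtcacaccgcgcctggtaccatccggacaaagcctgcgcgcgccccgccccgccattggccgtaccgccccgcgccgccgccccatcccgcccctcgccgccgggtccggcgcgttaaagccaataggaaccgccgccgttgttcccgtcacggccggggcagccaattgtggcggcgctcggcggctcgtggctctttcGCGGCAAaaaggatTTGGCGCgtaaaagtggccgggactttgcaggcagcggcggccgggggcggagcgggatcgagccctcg
MCM7, chr7:100101348-100101647, minus strand: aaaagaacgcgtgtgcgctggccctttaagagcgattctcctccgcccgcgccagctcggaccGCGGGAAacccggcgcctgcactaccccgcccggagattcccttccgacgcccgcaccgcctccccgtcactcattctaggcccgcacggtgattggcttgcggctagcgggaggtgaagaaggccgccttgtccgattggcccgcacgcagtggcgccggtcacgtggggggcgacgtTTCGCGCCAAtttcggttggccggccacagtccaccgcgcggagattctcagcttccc
GINS2, chr16:85688905-85689204, minus strand: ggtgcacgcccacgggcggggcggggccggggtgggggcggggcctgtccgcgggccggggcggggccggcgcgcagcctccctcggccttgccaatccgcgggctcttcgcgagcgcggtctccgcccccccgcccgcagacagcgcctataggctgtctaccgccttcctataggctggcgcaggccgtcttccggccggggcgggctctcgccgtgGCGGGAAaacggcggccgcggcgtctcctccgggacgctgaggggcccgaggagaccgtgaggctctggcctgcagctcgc
PLK1, chr16:23678639-23678938, plus strand: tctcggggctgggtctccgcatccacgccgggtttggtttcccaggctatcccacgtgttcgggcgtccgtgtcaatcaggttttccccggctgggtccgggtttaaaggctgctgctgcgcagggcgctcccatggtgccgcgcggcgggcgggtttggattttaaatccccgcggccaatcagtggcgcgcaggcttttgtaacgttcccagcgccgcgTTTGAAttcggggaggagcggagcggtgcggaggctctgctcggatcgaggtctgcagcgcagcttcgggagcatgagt
CDC20, chr1:43358731-43359030, plus strand: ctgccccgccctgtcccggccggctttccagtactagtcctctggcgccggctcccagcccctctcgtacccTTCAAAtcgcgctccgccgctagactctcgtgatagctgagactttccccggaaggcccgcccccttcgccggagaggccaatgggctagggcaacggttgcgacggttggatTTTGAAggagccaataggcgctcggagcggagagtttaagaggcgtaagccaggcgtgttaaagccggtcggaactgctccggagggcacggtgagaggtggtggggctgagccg
CDK1, chr10:60778081-60778380, plus strand: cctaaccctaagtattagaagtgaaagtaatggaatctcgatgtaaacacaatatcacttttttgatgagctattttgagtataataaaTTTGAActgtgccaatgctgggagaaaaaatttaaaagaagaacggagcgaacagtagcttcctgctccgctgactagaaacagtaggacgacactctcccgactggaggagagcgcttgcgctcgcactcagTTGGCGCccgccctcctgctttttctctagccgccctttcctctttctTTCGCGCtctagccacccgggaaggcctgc

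E2F1 held E2F-type letters at -33 and -19 from its annotated start, MCM7 at -187, -8 and -5, and GINS2 at -31. PLK1 held CHR-type letters at -29 and CDC20 at -178 and -65. CDK1 held both kinds, CHR-type letters at -161 and E2F-type letters at -28 and 21. E2F-type letters were present in 19 of 24 S phase windows (79.2%) and in 3 of 16 mitosis windows (18.8%), beside 19.5% of 11546 windows of tested genes. CHR-type letters were present in 2 of 24 S phase windows (8.33%) and in 11 of 16 mitosis windows (68.8%), beside 11.7% of tested genes. The letters CCAAT, which often accompany the CHR in mitosis promoters, were present on either strand in 58.3% of S phase windows, 87.5% of mitosis windows and 36.4% of windows of tested genes. A match describes letters in a window and not a bound site.

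**Figure D1:**
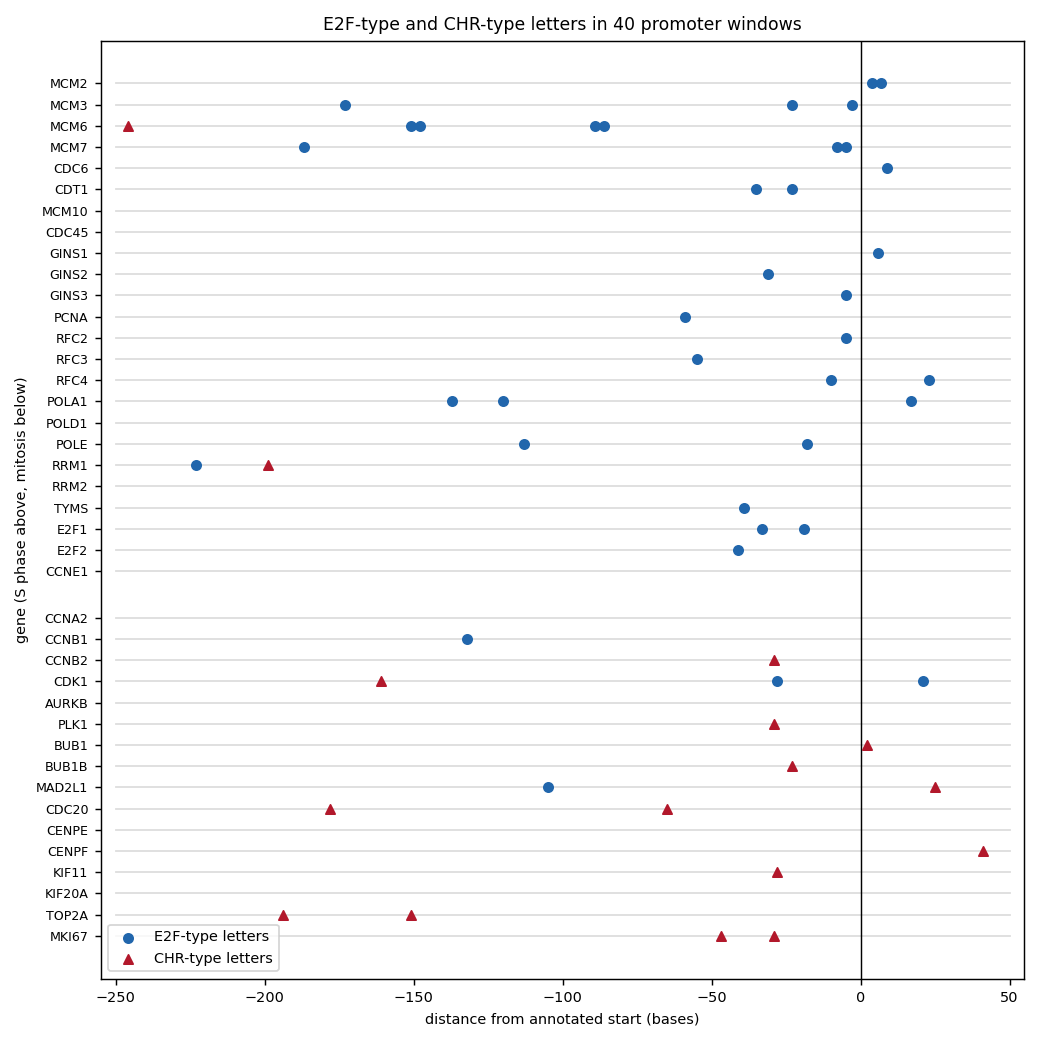
Position of E2F-type letters (circles) and CHR-type letters (triangles) in 40 promoter windows, as distance in bases from the annotated start (x axis), with one gene per line, S phase genes above and mitosis genes below. The S phase windows carry mainly circles (19 of 24 windows) and the mitosis windows mainly triangles (11 of 16 windows).

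Replication genes had slightly lower levels with avadomide than with DMSO in most lines. Of 29 S phase genes, 19 fell against DMSO, 0 rose and 10 did not pass the test. The called log2 changes ran from -0.44 to -0.11, and 17 of the 19 genes were lower in 4 of 4 lines, with MCM10 and E2F2 lower in 3. Of 21 mitosis genes, 7 fell, 0 rose and 14 did not pass. Among all tested genes 11.2% were called lower and 13.6% higher, and among the 6722 genes with a mean log2 value of at least 11, where precision is best and all 50 genes lie, 21.7% were called lower. The S phase count of 19 of 29 stands well above these shares. The genes were chosen with earlier results of these data known, so the count is not independent support. The count of 7 of 21 mitosis genes is close enough to 21.7% that little can be read from it. The median log2 change was -0.19 over the S phase genes, -0.09 over the mitosis genes, 0.01 over all tested genes and -0.02 over the highly expressed ones. In bulk libraries, fewer cells in a phase and less RNA per cell in that phase cannot be told apart.

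**Figure D2:**
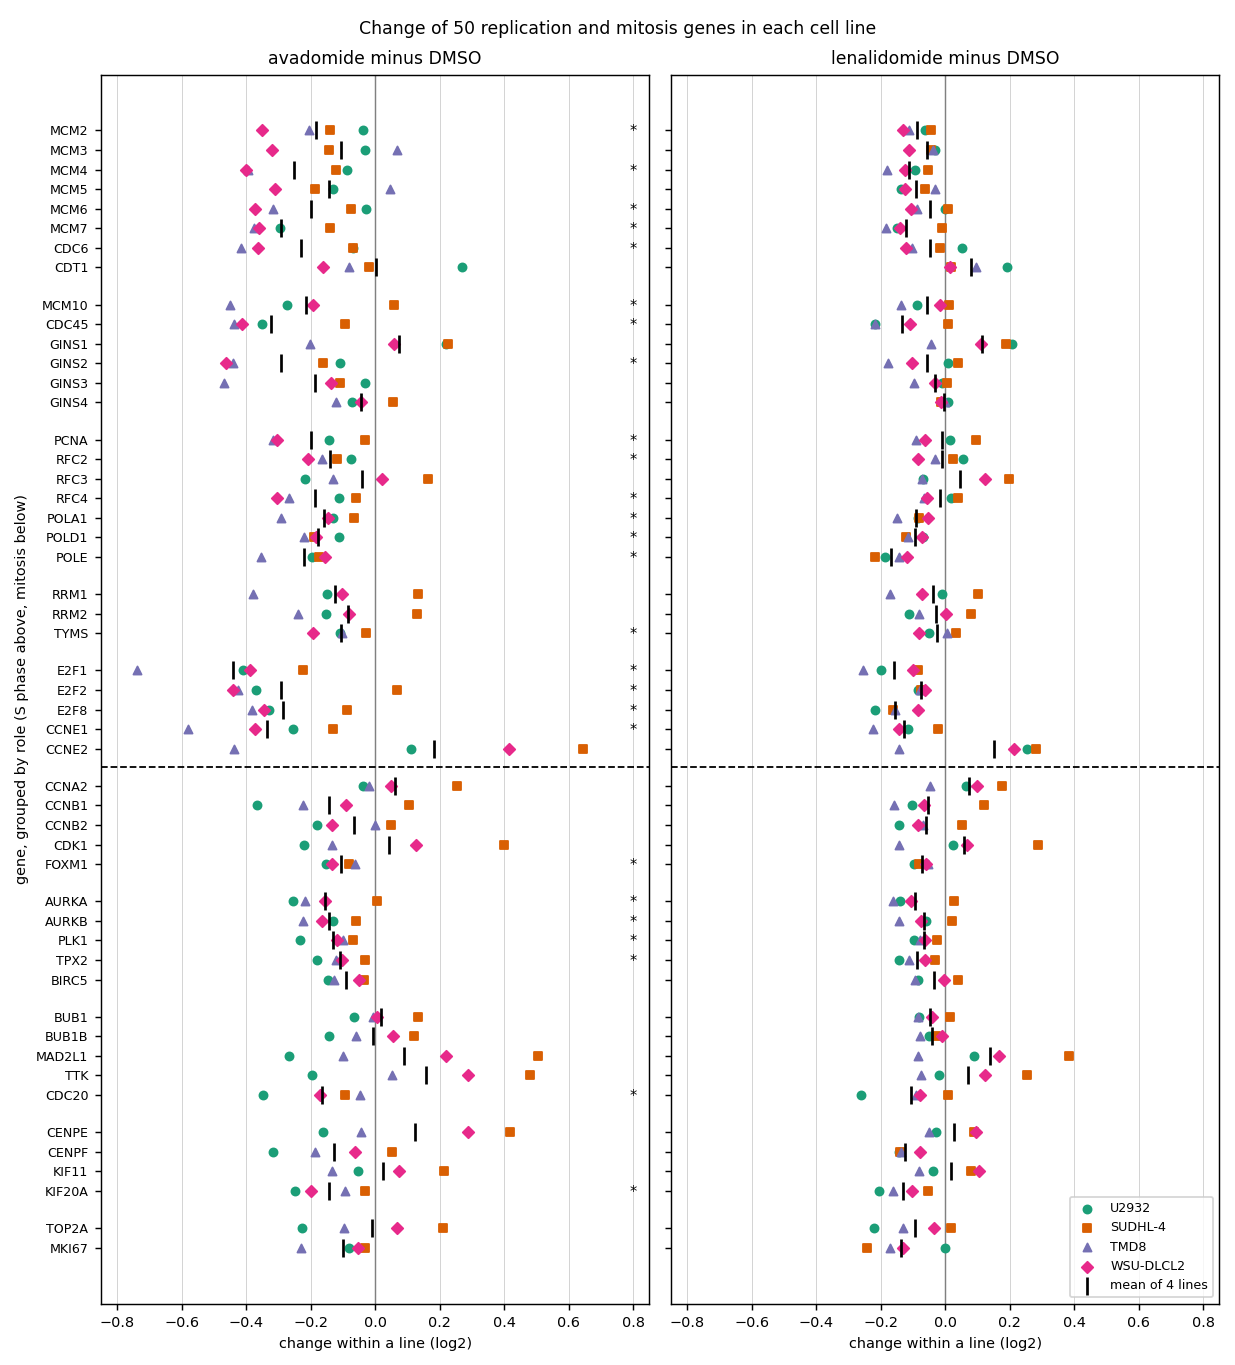
Log2 change against DMSO within each cell line (x axis) for 50 genes (y axis, grouped by role, S phase above the dashed line and mitosis below), with avadomide and lenalidomide in separate panels. Symbols are the 4 lines and the vertical tick is their mean. Most S phase ticks under avadomide lie left of 0 (26 of 29), and several mitosis genes such as MAD2L1 and TTK spread to both sides.

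The E2F factors and cyclin E had the largest falls by role, with 4 of 5 genes called and a median log2 change of -0.29. E2F1, the activator E2F that drives entry into S phase, had log2 levels in U2932, SUDHL-4, TMD8 and WSU-DLCL2 of 12.80, 13.43, 12.18 and 13.30 with DMSO, and of 12.39, 13.20, 11.44 and 12.91 with avadomide. It was lower with avadomide in every line, most in TMD8, although the ranges of both treatments overlap because lines differ more than treatments. The log2 change was -0.44 ± 0.068 (SE, n = 4 lines; adjusted p = 0.00224), or 0.738 of the DMSO level. CCNE1, the cyclin E1 gene, whose product activates CDK2 at the start of S phase, had levels of 11.41, 10.98, 11.96 and 11.48 with DMSO and of 11.15, 10.85, 11.38 and 11.10 with avadomide. It too was lower in each line with overlapping ranges, and fell by 0.33 ± 0.062 (SE; adjusted p = 0.00483). E2F2, a second activator, and E2F8, an atypical E2F that represses, both fell, by 0.29 and by 0.28 (adjusted p = 0.0292 and 0.00621). E2F2 was 0.07 higher in SUDHL-4 and 0.37 to 0.44 lower in the other lines. Its call was lost without U2932, without TMD8 or without WSU-DLCL2.

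CCNE2, the cyclin E2 gene and the remaining member of that role, was the most uneven of all 50 genes. Its log2 levels were 12.54, 11.85, 10.91 and 12.13 with DMSO and 12.65, 12.49, 10.47 and 12.54 with avadomide, in the same order of lines. Avadomide minus DMSO was thus 0.65 for SUDHL-4, 0.42 for WSU-DLCL2 and 0.11 for U2932 but -0.44 for TMD8, a range of 1.08. The mean of 0.18 ± 0.138 (SE, n = 4 lines) did not pass (adjusted p = 0.375). Without TMD8 the log2 change was 0.39 and was called higher (adjusted p = 0.0278), so the call for CCNE2 depends on that line, while its mean was above 0 in every setting run.

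Among the licensing genes 5 of 8 fell, namely MCM2, MCM4, MCM6, MCM7 and CDC6, the loader of the helicase ring. The role's median was -0.19. MCM7, a subunit of the ring, had log2 levels of 15.43, 15.95, 15.12 and 15.61 with DMSO and of 15.14, 15.81, 14.74 and 15.25 with avadomide. It was lower in each of the 4 lines while the ranges overlapped, and fell by 0.29 ± 0.040 (SE; adjusted p = 0.00136), the smallest p among the 50 genes. The other called ring subunits fell by 0.18 (MCM2), 0.25 (MCM4) and 0.20 (MCM6), and CDC6 by 0.23. MCM3 and MCM5, also ring subunits, had values of -0.11 and -0.14 and did not pass. Both were slightly above DMSO in TMD8, by 0.07 and 0.05, and lower in the other lines, and MCM5 was called lower without TMD8 (adjusted p = 0.0207). CDT1, the partner of CDC6 in loading, had a mean of 0.00, with 0.27 in U2932 and -0.16 in WSU-DLCL2.

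The genes that activate the loaded helicase behaved in a mixed way, with 3 of 6 called lower and a median of -0.20. CDC45, the helicase cofactor, had log2 levels of 12.69, 12.70, 12.74 and 12.95 with DMSO and of 12.34, 12.61, 12.30 and 12.54 with avadomide. Its avadomide levels, 12.30 to 12.61, all lay below its DMSO levels, 12.69 to 12.95. CDC45 fell by 0.32 ± 0.056 (SE; adjusted p = 0.00337). GINS2, a GINS subunit, had levels of 13.31, 13.30, 12.54 and 13.46 with DMSO and of 13.20, 13.14, 12.09 and 13.00 with avadomide. It was lower in all 4 lines, by 0.44 in TMD8 and 0.46 in WSU-DLCL2 but only 0.11 in U2932 and 0.16 in SUDHL-4. The mean log2 change of GINS2 was -0.29 ± 0.060 (SE; adjusted p = 0.00718), and the call was lost without WSU-DLCL2. MCM10, which helps helicase activation, fell by 0.21 (adjusted p = 0.0435). GINS3 and GINS4 had values of -0.19 and -0.05 and did not pass, and GINS1 had 0.08, with 0.22 in U2932 and 0.23 in SUDHL-4. Without TMD8, GINS1 was called higher, at 0.169 (adjusted p = 0.0343).

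Of 7 genes for the clamp, its loader and the polymerases, 6 fell, with a median of -0.18. POLE, the catalytic subunit of the leading strand polymerase, had log2 levels of 14.19, 13.80, 13.96 and 14.30 with DMSO and of 13.99, 13.63, 13.61 and 14.15 with avadomide. POLD1, the catalytic subunit of the lagging strand polymerase, had 13.25, 13.17, 13.65 and 13.15 with DMSO and 13.14, 12.98, 13.44 and 12.97 with avadomide. Both were lower in every line, and the ranges of the 2 treatments overlapped. POLE fell by 0.22 ± 0.043 (SE; adjusted p = 0.00583), and POLD1 by 0.18 ± 0.030 (SE; adjusted p = 0.00331), with a narrow span over lines from -0.22 to -0.11. The clamp gene PCNA fell by 0.20, the clamp loader genes RFC2 and RFC4 by 0.14 and 0.19, and POLA1, the catalytic subunit of the priming polymerase, by 0.16. RFC3 had -0.04 and did not pass, with 0.16 in SUDHL-4 and -0.22 in U2932. Among the genes for nucleotide supply, TYMS (thymidylate synthase) fell by 0.11. RRM1 and RRM2, the subunits of ribonucleotide reductase, had -0.12 and -0.09 and did not pass; both were 0.13 above DMSO in SUDHL-4, and both were called lower without that line (adjusted p = 0.0355 and 0.0344).

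**Figure D3:**
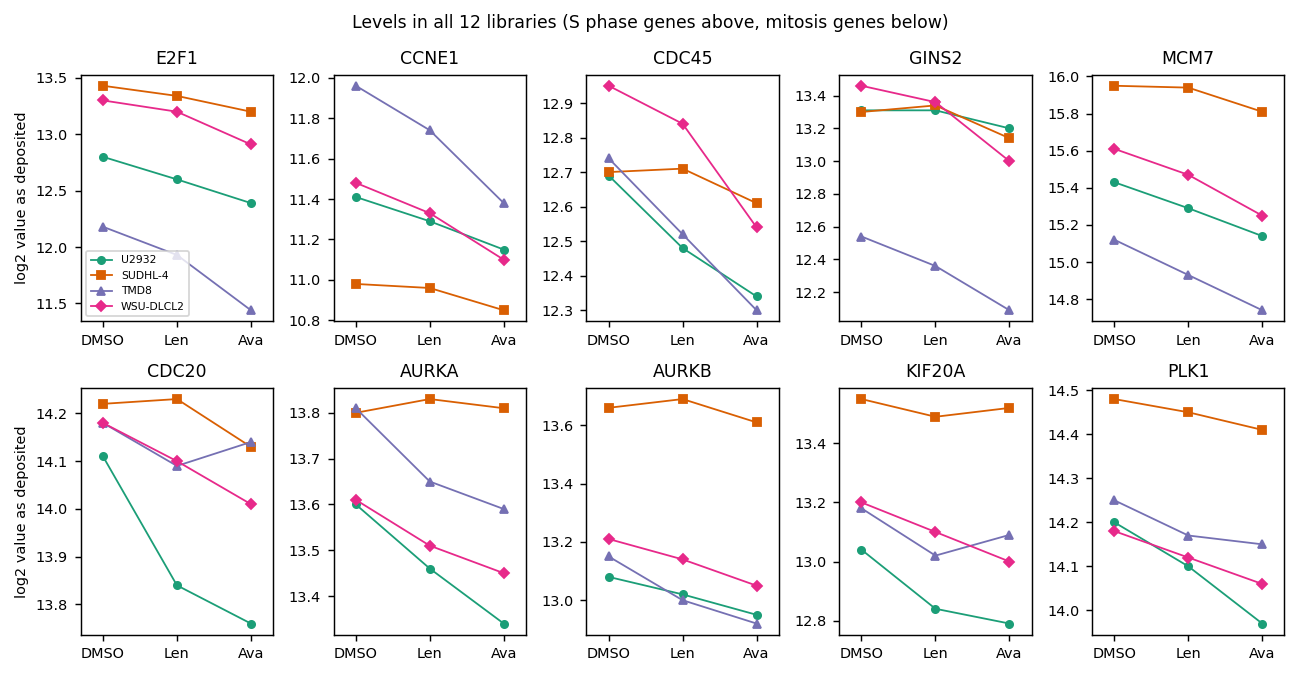
Deposited log2 values (y axis) with DMSO, lenalidomide (Len) and avadomide (Ava) for the 5 S phase genes and the 5 mitosis genes with the largest called falls under avadomide, with each line of symbols joining the 3 libraries of 1 cell line. Each panel has its own y axis, which does not start at 0. E2F1, CCNE1, CDC45, GINS2 and MCM7 are lower with avadomide than with DMSO in each of the 4 lines, and AURKA is not lower in SUDHL-4.

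The called falls of the S phase genes depended on which line was left out. Of the 19 genes, 7 were called in each of the 4 fits that left out 1 line, and these were MCM7, CDC45, POLD1, POLE, E2F1, E2F8 and CCNE1. MCM2, MCM4, MCM6, CDC6, MCM10, PCNA, RFC2, RFC4, POLA1, TYMS and E2F2 each lost their call without TMD8 and also when WSU-DLCL2 was left out. The S phase count was 15 with U2932 left out, 20 with SUDHL-4 left out, 9 with TMD8 left out and 7 with WSU-DLCL2 left out. Among all 22528 tested genes, 1506, 1968, 1840 and 1091 were called lower in these fits, in that order, against 2514 in the main fit.

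The 7 mitosis genes that fell had called log2 changes from -0.16 to -0.11. By role, 4 of 5 of the Aurora and Polo group fell, 1 of 5 cyclin, CDK1 and FOXM1 genes, 1 of 5 checkpoint genes, 1 of 4 kinetochore and motor genes, and 0 of 2 chromosome structure genes. A difference between roles was not tested. They were FOXM1, AURKA, AURKB, PLK1, TPX2, CDC20 and KIF20A, and 6 of them were lower in 4 lines. None of these 7 calls held in all 4 fits without 1 line: the mitosis count was 0 with U2932 left out, 3 with TMD8 left out and 0 with WSU-DLCL2 left out. With SUDHL-4 left out it was again 7, but CDC20 and FOXM1 were then not among them (adjusted p = 0.0581 and 0.0575). Counts of all tested genes called lower in these fits are given in the preceding paragraph.

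CDC20, which activates the anaphase promoting complex, had log2 levels of 14.11, 14.22, 14.18 and 14.18 with DMSO and of 13.76, 14.13, 14.14 and 14.01 with avadomide. The difference was mainly in U2932, at -0.35, and was -0.05 in TMD8. CDC20 fell by 0.16 ± 0.050 (SE, n = 4 lines; adjusted p = 0.0382), with overlapping ranges. AURKA, the kinase of the spindle poles, had 13.60, 13.80, 13.81 and 13.61 with DMSO and 13.34, 13.81, 13.59 and 13.45 with avadomide. SUDHL-4 stood apart with a difference of 0.00, and the other lines were 0.16 to 0.25 lower. AURKA fell by 0.16 ± 0.042 (SE; adjusted p = 0.0253). AURKB, the kinase of the chromosomal passenger complex, had 13.08, 13.66, 13.15 and 13.21 with DMSO and 12.95, 13.61, 12.92 and 13.05 with avadomide. It was lower in all 4 lines, with overlapping ranges, and fell by 0.14 ± 0.034 (SE; adjusted p = 0.0147).

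PLK1, the Polo kinase of mitotic entry, had log2 levels of 14.20, 14.48, 14.25 and 14.18 with DMSO and of 13.97, 14.41, 14.15 and 14.06 with avadomide. KIF20A, a motor of cytokinesis, had 13.04, 13.55, 13.18 and 13.20 with DMSO and 12.79, 13.52, 13.09 and 13.00 with avadomide. Both were lower in each line, and both differed most in U2932, by -0.23 and -0.25. PLK1 fell by 0.13 ± 0.033 (SE; adjusted p = 0.0185) and KIF20A by 0.14 ± 0.042 (SE; adjusted p = 0.0326). TPX2, the activator of AURKA on the spindle, had 15.02, 15.07, 14.92 and 14.87 with DMSO and 14.84, 15.04, 14.80 and 14.77 with avadomide, and fell by 0.11 ± 0.031 (SE; adjusted p = 0.0284). FOXM1, the transcription factor of late cell cycle genes, fell by 0.11 in the same fit (adjusted p = 0.0252). BIRC5, which encodes survivin, had -0.09 and did not pass (adjusted p = 0.0713).

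Of the mitosis genes that did not pass, BIRC5 and MKI67 were lower in all 4 lines, and the others named here were lower in some lines and higher in others. MAD2L1, a subunit of the checkpoint complex that restrains CDC20, had log2 levels of 13.67, 13.74, 13.67 and 13.75 with DMSO and of 13.40, 14.25, 13.57 and 13.96 with avadomide. It was 0.27 lower in U2932 and 0.50 higher in SUDHL-4, with a mean of 0.09 (adjusted p = 0.581). TTK, the checkpoint kinase also called MPS1, had 12.83, 12.81, 13.06 and 12.76 with DMSO and 12.64, 13.29, 13.11 and 13.05 with avadomide. TTK was thus 0.20 lower in U2932 but 0.48 higher in SUDHL-4 and 0.29 higher in WSU-DLCL2, with 0.05 in TMD8, and the mean of 0.16 did not pass (adjusted p = 0.237). CENPE, a kinetochore motor, and CDK1, the kinase of mitotic entry, showed a like split, with 0.42 and 0.40 in SUDHL-4 and -0.16 and -0.22 in U2932. CCNA2, BUB1, BUB1B, KIF11 and TOP2A were also higher in SUDHL-4, by 0.26, 0.13, 0.12, 0.21 and 0.21, and their means over lines, from -0.01 to 0.06, did not pass. CCNB1, CCNB2 and CENPF had means of -0.14, -0.07 and -0.13 and did not pass, but without SUDHL-4 CCNB1 and CENPF were called lower (adjusted p = 0.0297 and 0.035). MKI67, the gene of the proliferation marker Ki-67, had levels of 15.74, 16.38, 16.18 and 16.28 with DMSO and of 15.66, 16.35, 15.95 and 16.22 with avadomide. It was lower in all 4 lines by 0.03 to 0.23, and its mean of -0.10 did not pass (adjusted p = 0.177). MKI67 was called lower when each library was centred on its median (adjusted p = 0.0438).

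Line by line, the 2 groups moved apart most in WSU-DLCL2 and TMD8. With avadomide, the median log2 difference of the S phase genes was -0.11 for U2932, -0.08 for SUDHL-4, -0.32 for TMD8 and -0.30 for WSU-DLCL2, with 26, 21, 27 and 26 of 29 genes lower. For the mitosis genes the medians, in that order, came to -0.18, 0.05, -0.10 and -0.05, with 21, 8, 20 and 12 of 21 genes lower. U2932 was therefore the line in which mitosis genes were lower than S phase genes, and SUDHL-4 the line in which most mitosis genes were higher than with DMSO. The medians of all tested genes were within 0.03 of 0 in each line. These are values of single libraries and carry no test.

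**Figure D4:**
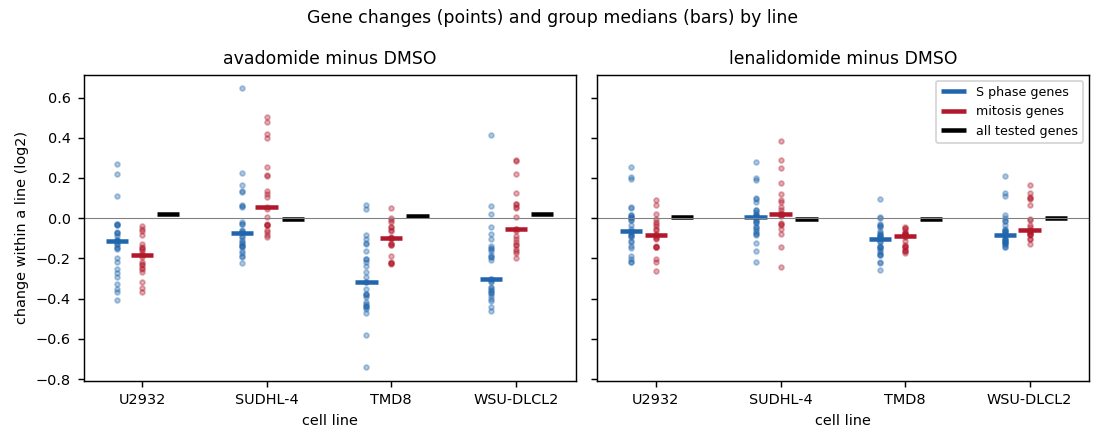
Log2 change against DMSO (y axis) in each cell line (x axis), with points for single genes and bars for the medians of the S phase genes, the mitosis genes and all tested genes, with avadomide and lenalidomide in separate panels. The S phase median under avadomide is lowest in TMD8 (-0.32) and WSU-DLCL2 (-0.30), and the mitosis median is lowest in U2932 (-0.18).

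The split of the mitosis genes in SUDHL-4 and WSU-DLCL2 went along with the base composition of the transcripts. Median GC content of the longest transcript was 48.5% for S phase genes, 43.2% for mitosis genes and 48.4% for the 17550 tested genes with a value. Across the 21 mitosis genes, Spearman's rho of avadomide minus DMSO with GC content was -0.936 in SUDHL-4 and -0.826 in WSU-DLCL2, but -0.07 in U2932 and -0.12 in TMD8. Across the 29 S phase genes it was -0.67, -0.47, -0.21 and 0.13 in those lines. All tested genes gave -0.41 in SUDHL-4, -0.22 in WSU-DLCL2 and -0.06 in both other lines. The points of a line share 1 pair of libraries, so these are descriptions. Of the 21 genes above DMSO in SUDHL-4, 20 had a GC content under the 48.4% median of all genes, among them CCNE2 (36.9%) and MAD2L1 (39.4%), and the exception was E2F2 (57.5%). Of the 29 genes below DMSO there, 9 had a GC content under that median. With the GC and length trend of each library removed, an alternative chosen after the data were seen, 24 S phase and 14 mitosis genes were called lower and 0 higher. That setting also moved the calls of all genes to 4500 lower and 1724 higher, from 2458 and 2652 in the same genes with the trend kept, and their median to -0.08.

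**Figure D5:**
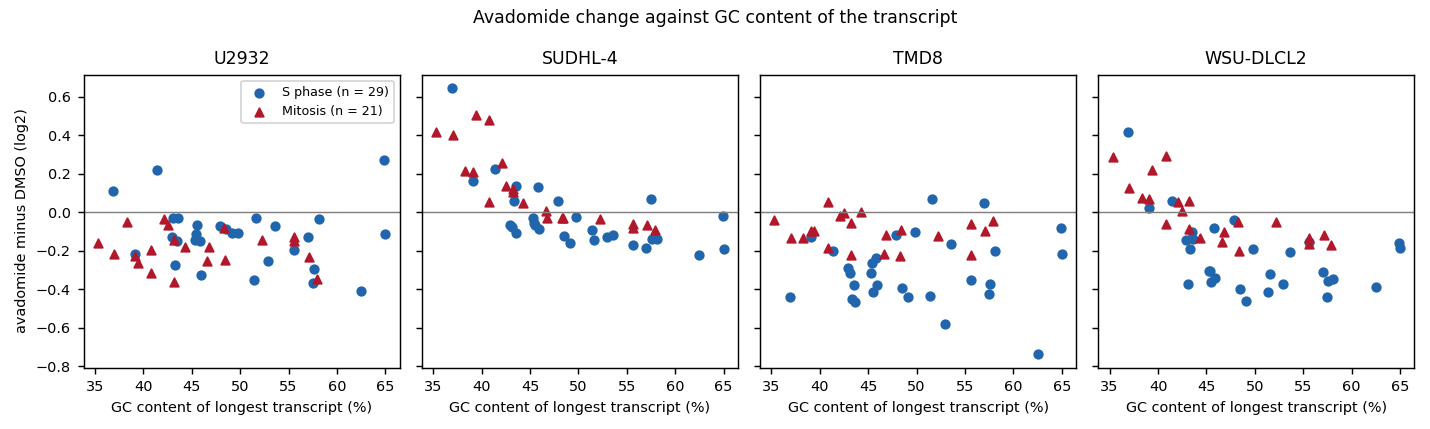
Avadomide minus DMSO (log2, y axis) against GC content of the longest transcript (percent, x axis) for S phase genes (n = 29) and mitosis genes (n = 21) in each of the 4 cell lines. The points slope down in SUDHL-4 (rho = -0.783 over 50 genes) and WSU-DLCL2 (rho = -0.675) and show little slope in U2932 (rho = -0.102) and TMD8 (rho = -0.125).

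Scaling bears on how many genes were called. The main calls split 2514 lower to 3068 higher. Quantile normalization gave 3644 lower and 2544 higher, with 19 S phase and 8 mitosis genes lower. Median centring gave 4825 lower and 1881 higher, with 22 and 10 genes lower, and moved the median of all genes from 0.01 to -0.10. Relative to the median of all genes, the S phase and mitosis medians were -0.20 and -0.10 as deposited and with median centring, which shifts all genes of a library alike. With quantile normalization they were -0.13 and -0.02. No S phase or mitosis gene was called higher under these 3 scalings.

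Lenalidomide moved none of the 50 genes past the threshold in limma. The background was 0.00888% of tested genes called lower and 0.226% higher, so few calls were available for any gene set. An unadjusted p under 0.05 was reached by 11 of the 50 genes, beside 2922 of all 22528 tested genes. The median log2 difference was -0.06 for the S phase genes and -0.06 for the mitosis genes, with 5.3e-05 for all tested genes. Of the S phase genes 12 were lower in all 4 lines and 5 in 3 lines, and of the mitosis genes 7 and 8. Within single lines, 48.1% to 50.7% of all tested genes were lower. How many of all tested genes were lower in 3 or 4 lines was not counted. SUDHL-4 had medians of 0.01 and 0.02, and the other lines -0.10 to -0.06.

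The genes with the smallest p under lenalidomide were POLE, POLD1 and MCM7 for S phase. POLE had log2 levels with lenalidomide of 14.00, 13.58, 13.81 and 14.19, against the DMSO levels given above, and a difference of -0.17 ± 0.043 (SE; adjusted p = 0.14). POLD1 had levels of 13.18, 13.05, 13.54 and 13.08 and a difference of -0.09 (adjusted p = 0.224), and MCM7 levels of 15.29, 15.94, 14.93 and 15.47 and a difference of -0.12 (adjusted p = 0.238). Each was lower than DMSO in every line, with overlapping ranges. For mitosis they were KIF20A, TPX2 and MKI67. KIF20A had 12.84, 13.49, 13.02 and 13.10 and a difference of -0.13 (adjusted p = 0.223), and TPX2 had 14.87, 15.04, 14.81 and 14.81 and a difference of -0.09 (adjusted p = 0.274). MKI67 had 15.74, 16.14, 16.01 and 16.15 and a difference of -0.14 (adjusted p = 0.286), with U2932 the line in which it hardly differed. POLE was the 1 gene called lower (adjusted p = 0.035) when the fit held only the 8 libraries of lenalidomide and DMSO, which uses the spread of those libraries alone.

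E2F1 with lenalidomide had log2 levels of 12.60, 13.34, 11.93 and 13.20 and a difference from DMSO of -0.16, beside -0.44 with avadomide. CCNE1 had 11.29, 10.96, 11.74 and 11.33 and a difference of -0.13, beside -0.33. CDC45 had 12.48, 12.71, 12.52 and 12.84 and -0.13, beside -0.32. In these 3 genes the lenalidomide library lay between DMSO and avadomide in U2932, TMD8 and WSU-DLCL2. GINS2 had 13.31, 13.34, 12.36 and 13.36 and a difference of -0.06, beside -0.29. None of the 4 lenalidomide values passed the test (adjusted p = 0.346 to 0.738), and both comparisons share the DMSO libraries.

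Set directly against lenalidomide, avadomide gave lower levels of 2 of the 50 genes, MCM7 and PCNA. The background was 2.22% of tested genes lower and 2.51% higher, so 2 of 50 is close to the share of all genes. The doses are unknown, and the 2 compounds share the glutarimide ring that binds cereblon while the rest of their ring system differs. For MCM7 the log2 difference was -0.17 (95% interval -0.26 to -0.08; adjusted p = 0.0435). PCNA, named because it was called and not by the rule for named genes, had levels of 15.49, 15.24, 14.92 and 15.10 with lenalidomide and of 15.34, 15.11, 14.70 and 14.86 with avadomide. PCNA was lower with avadomide in each line, with overlapping ranges, and the difference was -0.19 (95% interval -0.29 to -0.09; adjusted p = 0.0494). Both calls lie near the threshold. With SUDHL-4 left out, MCM7 and E2F2 were called (adjusted p = 0.0386 and 0.0113), and with any other line left out 0 genes were called. PCNA was thus called in none of these fits. It was also not called with quantile normalization, and MCM7 was not called with the GC and length trend removed. The median difference was -0.13 over the S phase genes, with 28 of 29 below 0, and -0.01 over the mitosis genes, with 14 of 21 below 0. An unadjusted p under 0.05 was reached by 17 of 29 S phase genes, the 2 called ones included, and by 1 of 21 mitosis genes. Among all 22528 tested genes it was reached by 4989. A missed threshold does not show that the compounds act alike.

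Other cell cycle genes, taken as 149 genes in 9 lists by function, fell in 44 and rose in 8 cases with avadomide, with a median log2 change of -0.09. The 29.5% called lower stand beside 11.2% of all tested genes and 21.7% of those with a mean log2 value of at least 11, where 145 of the 149 lie. The fork and lagging strand list had the most calls, with 14 of 22 (63.6%) lower and 0 higher. They included LIG1, the ligase of the lagging strand, at -0.32, and TIPIN, of the fork protection complex, at -0.27. With U2932, SUDHL-4, TMD8 or WSU-DLCL2 left out, 8, 14, 8 and 7 genes of this list were called lower. In the same order, 1, 0, 1 and 0 of them were called higher. Of 13 genes for origin recognition and firing, 2 were lower and 1 higher, with ORC1 at -0.21 and ORC4 at 0.35, both subunits of the origin recognition complex. Nucleotide synthesis had 3 of 8 lower and 1 higher, led by DTYMK, which makes the thymidine precursor, at -0.25 and DCK, a salvage kinase, at 0.23. Among 16 E2F, RB and DREAM regulators 3 fell and 3 rose. There the largest changes were rises of E2F7, an atypical repressor E2F, by 0.48 and of RB1, the retinoblastoma gene, by 0.41 (adjusted p = 0.00717 and 0.000421), each higher in all 4 lines.

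The lists for origins, regulators, kinetochore, G2 and M phase kinases and the anaphase promoting complex had 15.4% to 21.7% of genes called lower, no more than the share of highly expressed genes, so their counts say little about the lists. Kinetochore and checkpoint genes fell in 5 and rose in 1 of 23, with CENPM, a centromere protein, at -0.49 (adjusted p = 0.00045) and SGO2, a protector of centromeric cohesion listed as SGOL2, at 0.27. Spindle motor and cytokinesis genes fell in 6 of 22, led by KIF15, a spindle motor, at -0.25 and TACC3, a spindle protein, at -0.23. Condensation and cohesion genes fell in 5 of 14, led by NCAPD3, a condensin subunit, at -0.25 and CDCA5 (sororin) at -0.22. Of 15 kinases and phosphatases of G2 and M phase 3 fell and 1 rose, led by PKMYT1, an inhibitory kinase of CDK1, at -0.27 and CKS1B, a CDK subunit, at -0.19. Of 16 anaphase promoting complex and SCF genes 3 fell and 1 rose, with UBE2S, an ubiquitin-conjugating enzyme, at -0.18 and CDC27, a complex subunit, at 0.20. With U2932 left out the 149 genes gave 25 lower and 10 higher, with SUDHL-4 left out 54 and 5, with TMD8 left out 24 and 7, and with WSU-DLCL2 left out 20 and 5. Over all tested genes, 1506, 1968, 1840 and 1091 were called lower, in that order. LIG1, DTYMK, ORC4, RB1, CENPM, TACC3, CDCA5 and PKMYT1 were called in each of these fits, and the other 10 named genes lost their call in at least 1 of them. With the GC and length trend removed, CDC27, DCK and SGO2 were no longer called higher (adjusted p = 0.98, 0.242 and 0.753). With lenalidomide 0 of the 149 passed in limma, with 31 at an unadjusted p under 0.05, beside 2922 of all 22528 tested genes.

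In the 40 genes with a promoter window, falls were not limited to genes with the letters searched for. Of 19 S phase genes with E2F-type letters 13 fell, with a median log2 change of -0.19, and of 5 without them 4 fell, with a median of -0.21. CDC45 and CCNE1, among the largest falls, were 2 of those 5. Only the exact letters given above were searched, so windows without them may hold other forms of an E2F site. Of 11 mitosis genes with CHR-type letters 2 fell, PLK1 and CDC20, with a median of -0.01, and of 5 without them 2 fell, AURKB and KIF20A, with a median of -0.14. These counts are small and carry no test.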

How the data were processed

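RNA abundance was measured in 12 libraries, 1 per cell line and treatment, and groups came from the labels. The authors deposited 1 table of log2 values per gene. STAR, Salmon, MACS and build hg38 are named, without versions, in the submitters' processing notes. No source used here gives the transform, normalization or depth. The values behave as a regularized log, on which changes of low genes are understated, and allow no counting interval. Entries with date-like symbols (28) were left out, and the 22528 genes that reached log2 of 1 in 4 or more libraries were tested.

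One model, treatment plus cell line, was fitted to all 12 libraries with limma (3.58.1, under R 4.3.3), using an intensity trend, with 6 residual and 9.62 total degrees of freedom, two-sided. The main calls use a Benjamini-Hochberg adjusted p of 0.05. All 3 contrasts share 1 estimate of the spread. The pairing comes from the cell line: deviations from treatment means correlated at 0.918 to 0.977 within a line and at -0.574 to 0.199 between lines. No 2 libraries were identical, and 0 columns belonged to no sample. Values in every library are given for the 5 largest called falls of each group under avadomide, the 3 smallest p of each group under lenalidomide and the 3 widest ranges over lines; of each list of other cell cycle genes the 2 largest called changes are named. A rule for the largest called rises named no gene. The genes and lists were chosen with earlier results of these data known. Promoter windows and gene synonyms came from RefSeq on GRCh38.p14. Transcript GC content and length came from the longest GENCODE transcript of each gene symbol. The fit was tested on simulated data. Alternatives covered scaling, the filter, the trend, the block, the libraries in the fit and each line left out. A pseudocount was not needed because the values are already logs.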

Additional observations from a re-analysis of the deposited data

Results flagged for a closer look

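Among 151 sets of 4 lines tested for a single line apart from the rest by Dixon's criterion (critical value 0.829), 6 were marked, close to the 1 in 20 that chance gives. In TMD8, CCNE2 with avadomide stood at a log2 level of 10.47, against 12.49 to 12.65 in the other lines, and its lenalidomide minus DMSO difference was -0.144, against 0.212 to 0.282. GINS2 with lenalidomide stood at 12.36 in TMD8, against 13.31 to 13.36. The avadomide minus DMSO difference of E2F2 was 0.067 in SUDHL-4, against -0.441 to -0.369. In WSU-DLCL2, lenalidomide minus DMSO was -0.111 for MCM3, against -0.0437 to -0.0318, and -0.0787 for CENPF, against -0.144 to -0.139.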

How the results depend on the processing

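Of the counts of called genes under alternatives, 45 stayed within 1.5 times the main count, 25 were lower and 8 higher. Among the genes given in every library, no called one changed sign; MAD2L1, not called, went from 0.09 to -0.02 with median centring, -0.05 with the GC and length trend removed and -0.05 without SUDHL-4, and the SUDHL-4 medians under lenalidomide turned from 0.01 and 0.02 to -0.02 and -0.00138 with quantile normalization. For avadomide against DMSO, the 26 called genes became 16 with no filter, 3 (CDC45, E2F1 and MCM7) with only the 8 libraries compared, 11 without the intensity trend, and 7 to 27 when 1 line was left out. Without the replicate block, so that lines counted as spread, 0 were called, with 1 gene at an unadjusted p under 0.05. The 19 lower S phase genes became 3 with 8 libraries, 0 without the block, 11 without the trend, and 7 to 20 without a line. The 7 lower mitosis genes became 14 with the GC and length trend removed, 3 with no filter, 0 with 8 libraries, 0 without the block, 0 without the intensity trend, and 0 to 7 without a line. Genes called higher numbered 0, or 0 to 2 without a line. For lenalidomide against DMSO, 1 gene was called with 8 libraries in place of 0. For avadomide against lenalidomide, 2 calls became 4 with quantile normalization, 7 with median centring, 6 with the GC and length trend removed, 6 in the same genes with the trend kept, 6 with a filter at log2 of 5, 0 with no filter, 0 without the block, 0 without the intensity trend, and 0 to 2 without a line. In that comparison, the calls of all tested genes went from 500 lower and 565 higher to 696 and 487 with quantile normalization and 1356 and 380 with median centring. They were 1213 and 382 with the GC and length trend removed, and 591 and 585 in the same genes with the trend kept. Leaving out lines or libraries leaves fewer samples by construction, and no filter tests more genes. For the other settings the cause was not tested. The GC correction as first planned, over nearly all tested genes, was not run, since 77.9% had a value. Unknown depth and dose, and 1 library per line and treatment, limit all values.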

Other observations

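In 42 of the 50 genes the line means spanned more than the widest difference between treatments within a line; in MCM3, CDC6, MCM10, CDC45, GINS3, MAD2L1, TTK and CDC20 they spanned less. The median of that widest difference was 0.354 for S phase genes and 0.241 for mitosis genes. SUDHL-4 had the highest mean level in 18 of 21 mitosis genes, beside 28.8% of the tested genes with a mean log2 value of at least 11. TMD8 had the lowest mean level in 17 of 29 S phase genes, beside 29.6%. E2F2, an activator E2F, had the widest range over lines, 2.88, from 10.81 in TMD8 to 13.69 in SUDHL-4. CCNE2 followed with 1.95 and E2F1 with 1.47. The median range over lines was 0.759 for S phase genes and 0.578 for mitosis genes, against 1.23 for all tested genes. Of the S phase genes 7 had a range over 1, and of the mitosis genes 0. The 3 libraries of a line differ in treatment, so these levels carry no test.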
